A study of Mus musculus with 6 samples.

Results

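The transcripts described here are those of 10 genes of the neuronal cytoskeleton, namely Tubb3, Dcx, Map2, Mapt, Stmn2, Stmn3, Gap43, Nefl, Nefm and Ina. They were taken by symbol from the deposited table of 52636 genes, each symbol matched 1 row, and all 10 passed the filter on low counts, which left 16869 genes in the whole series. RNA had been sequenced from pools of dissociated forebrain cells sorted for the surface protein Prominin1, as radial glia of the cortex, from mouse embryos at embryonic day 12.5. SmadNes embryos carried 1 wild-type and 1 floxed copy of both Smad1 and Smad5 (Smad1wt/fl;Smad5wt/fl) together with Nestin:Cre+/0, a transgene that drives Cre recombinase in neural progenitors. Control littermates carried the same floxed copies with Nestin:Cre0/0, that is, without Cre, and both groups had a mixed background of CD1, 129/ola and C57BL6. There were 3 pools per genotype. Each pool name, SF3, SF4 and SF5_6, occurs once in each genotype, and the labels do not say what the names stand for or how many embryos or litters a pool held. The 3 pairs had been chosen by the authors for the best RNA integrity, per the labels' protocols.

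Neurons that leave the cell cycle replace the cytoskeleton of a progenitor with one suited to migration and to the growth of axons and dendrites. Microtubules are built of alpha and beta tubulin and are stabilised by proteins such as doublecortin, MAP2 and tau, while stathmins bind free tubulin and favour disassembly. Neurofilaments are the intermediate filaments of neurons, and alpha-internexin precedes the other subunits in the developing brain. Radial glia use nestin and vimentin in their place. The libraries are bulk samples, in which fewer cells of a type and less RNA per cell cannot be told apart.

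The genes lie on 9 chromosomes. Dcx (ENSMUSG00000031285.14, chromosome X, 143855842 to 143933311), Map2 (ENSMUSG00000015222.17, chromosome 1, 66175273 to 66442583) and Mapt (ENSMUSG00000018411.17, chromosome 11, 104231390 to 104332090) encode proteins that bind and stabilise microtubules. Stmn2 (ENSMUSG00000027500.10, chromosome 3, 8509360 to 8561606) and Stmn3 (ENSMUSG00000027581.12, chromosome 2, 181306459 to 181314500) encode stathmins, Gap43 (ENSMUSG00000047261.9, chromosome 16, 42248442 to 42340651) a growth cone protein, and Ina (ENSMUSG00000034336.3, chromosome 19, 47014698 to 47025327) alpha-internexin. Tubb3 (ENSMUSG00000062380.4, chromosome 8, 123411424 to 123422015, positions throughout in GRCm38 from GENCODE M21) encodes the neuronal beta-tubulin recognised by the TuJ1 antibody. Nefl (ENSMUSG00000022055.7, chromosome 14, 68083863 to 68089095) and Nefm (ENSMUSG00000022054.11, chromosome 14, 68082590 to 68124846), which encode the light and medium neurofilament subunits, are neighbours on opposite strands. The short Nefm transcript ends 30187 bases from Nefl, and the long one, Nefm-202, spans Nefl and overlaps its exons on the other strand. Counting used the strand, per the labels' protocols. Ina also overlaps exons of a gene on the opposite strand, Nt5c2, as does Map2 those of Gm10558. No window of 100 bases in any annotated transcript of the 10 genes occurred in a transcript of another gene, whereas 65.1% of such windows of Tuba1a and 36.9% of those of Tubb2a did.

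Promoter sequences (250 bases before to 50 after the start site, RefSeq annotation of GRCm38.p6) were found for 5 of the 10 genes: Tubb3, Dcx (with a pair of start sites), Map2, Stmn3 and Ina. Those of Stmn2, Mapt, Gap43, Nefl and Nefm were not used here. The 4 below are shown because these genes followed different courses across the pools, Ina higher and Dcx and Stmn3 lower in SF5_6, with Tubb3 nearly level. Each runs 5′ to 3′ on its gene's strand, and capitals mark every match, on either strand, to the motifs CANNTG (the E-box of basic helix-loop-helix factors, of which CAGATG and CAGCTG are forms), GGGCGG (the GC box), TATAAA (the TATA box) and CAGCACC (a part of the element bound by the neuronal gene repressor REST).
Ina, GRCm38 chr19:47014431-47014730, plus strand: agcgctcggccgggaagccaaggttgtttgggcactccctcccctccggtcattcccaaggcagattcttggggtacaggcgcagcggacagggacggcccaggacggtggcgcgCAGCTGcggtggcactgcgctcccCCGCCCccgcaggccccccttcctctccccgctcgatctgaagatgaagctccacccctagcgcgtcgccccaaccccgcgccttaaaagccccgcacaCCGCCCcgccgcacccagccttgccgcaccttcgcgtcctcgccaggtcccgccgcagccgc
Dcx, GRCm38 chrX:143933170-143933469, minus strand: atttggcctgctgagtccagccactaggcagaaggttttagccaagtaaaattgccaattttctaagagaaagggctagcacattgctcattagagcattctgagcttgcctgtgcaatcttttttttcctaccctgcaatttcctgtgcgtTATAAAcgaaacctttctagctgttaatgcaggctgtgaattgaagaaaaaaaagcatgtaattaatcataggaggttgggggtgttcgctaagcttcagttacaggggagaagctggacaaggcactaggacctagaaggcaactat
Stmn3, GRCm38 chr2:181314451-181314750, minus strand: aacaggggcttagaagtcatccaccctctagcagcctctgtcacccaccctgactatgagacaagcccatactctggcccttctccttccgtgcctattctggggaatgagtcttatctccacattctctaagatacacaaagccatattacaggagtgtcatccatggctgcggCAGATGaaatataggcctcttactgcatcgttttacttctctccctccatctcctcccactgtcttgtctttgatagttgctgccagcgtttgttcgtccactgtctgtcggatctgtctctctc
Tubb3, GRCm38 chr8:123411303-123411602, plus strand: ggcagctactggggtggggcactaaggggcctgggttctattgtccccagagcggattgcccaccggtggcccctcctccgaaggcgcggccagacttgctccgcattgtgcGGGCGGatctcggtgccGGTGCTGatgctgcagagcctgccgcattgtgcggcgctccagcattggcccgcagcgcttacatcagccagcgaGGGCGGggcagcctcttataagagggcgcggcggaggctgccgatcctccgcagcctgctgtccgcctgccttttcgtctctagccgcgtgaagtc
In the Ina window the capitals mark CAGCTG and 2 GC boxes read on the other strand, in Dcx the TATA box, in Stmn3 CAGATG, and in Tubb3 2 GC boxes and 1 match to CAGCACC on the other strand. Map2 held 5 GC boxes and no E-box. Over all 32851 promoters of this length, 72.3% held CANNTG, 17.2% CAGATG, 16.3% CAGCTG, 35.7% GGGCGG, 13.6% TATAAA and 7.14% CAGCACC. GC content was 43% in the Dcx window shown and 49.7% in Stmn3, against 67.3% in Tubb3, 71.7% in Ina and 77.7% in Map2, with a median of 52.7% over all promoters. These matches describe the letters of the windows and were not tied to the counts.

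Library totals lay between 32997423 and 40744672 expected counts. Before the 10 genes, the targeted genes were read in every library. Smad5 stood at 289.6, 299.9 and 287 CPM in the control libraries SF3, SF4 and SF5_6, and at 388, 411 and 373 CPM in the SmadNes libraries of those names, and Smad1 had 72.7, 77.8 and 76.1 CPM in controls and 86.9, 92.9 and 85.7 CPM in SmadNes, in the order SF3, SF4 and SF5_6. All 3 SmadNes libraries stood above all 3 controls for both genes, so neither level was lower in the libraries labelled SmadNes, which carry Cre and the floxed copies. For Smad5 the mean was 391 ± 18.8 CPM in SmadNes and 292 ± 6.74 CPM in controls (SD, n = 3 each), with an edgeR adjusted p of 0.965, or 0.00757 with the replicate name as a block. Counts summed over a whole gene cannot show whether its floxed part was lost. SmadNes and control below mean the libraries so labelled, and every genotype direction rests on those labels. The sort marker Prom1 did not pass between genotypes, with 124 ± 11.97 CPM in SmadNes and 119.5 ± 11.8 CPM in controls. Between pool names Prom1 did pass (edgeR F test of names, adjusted p 0.00342). Its means were 108, 126 and 130.5 CPM in SF3, SF4 and SF5_6.

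Several of the 10 genes were among the most abundant transcripts of the sorted cells. Levels between genes are given as CPM (counts scaled to a common library total of 1000000, after TMM) per kilobase of the union of annotated exons, as mean ± SD over the 6 libraries. Tubb3 led with 469 ± 26.7 CPM per kb, above 99.8% of the tested genes. It was followed by Dcx, the doublecortin gene mutated in lissencephaly, with 93.4 ± 16.4 CPM per kb, Map2 with 67.8 ± 3.39, and Stmn3 with 62.4 ± 6.92. Ina stood at 46.9 ± 6.12 and Gap43, which encodes a membrane protein of growth cones, at 45.9 ± 4.92 CPM per kb. Stmn2, the neuronal stathmin also called SCG10, stood at 24.4 ± 4.39, Mapt, which encodes tau, at 15.8 ± 3.71, Nefm at 3.86 ± 0.756 and Nefl at 2.05 ± 1.03 CPM per kb. The ranges over libraries overlapped between the neighbours Map2 and Stmn3, Stmn3 and Ina, Ina and Gap43, Stmn2 and Mapt, and Nefm and Nefl, and did not overlap between the other neighbours in this order. For scale, the sort marker Prom1 stood at 16.9, Nes at 71.7 and Vim at 158 CPM per kb. Per length of the longest transcript instead, Map2 stood at 178 and Dcx at 130.1 CPM per kb, and Gap43 at 49.2 and Ina at 46.9. The order of Map2 and Dcx, and that of Ina and Gap43, thus rests on the length used. The third neurofilament subunit gene, Nefh, had only 1 to 6 counts in a library and was not tested.

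Between the genotypes, none of the 10 transcripts passed the test adjusted over all genes. EdgeR's quasi-likelihood test called 0 of the 10 at a Benjamini-Hochberg adjusted p below 0.05, against 0% of all 16869 tested genes (0 called), and 0 of the 10 at an unadjusted p below 0.05, against 1.05% (177 genes). DESeq2 also called 0 of the 10, and 7 genes in all. With the replicate name as a block, edgeR called 0 of the 10 and 0.0237% of all genes (4 called), and Tubb3, Mapt and Nefm had an unadjusted p below 0.05, as had 6.23% of all genes. Their log2 differences and 95% intervals in that fit, unadjusted for the number of genes, were -0.090 (-0.17 to -0.011) for Tubb3, -0.25 (-0.39 to -0.11) for Mapt and -0.18 (-0.34 to -0.023) for Nefm, while the intervals of the other 7 included 0. Genotype intervals below are from the fit without the block, and those with the block were narrower for all 10. Replicates are pools, so p-values without the block measure the spread between pools of a genotype. Those with the block measure the spread left within names. The groups overlapped for all 10 genes, whereas 4.77% of all genes had groups that did not overlap. Of the 10 log2 differences, SmadNes minus control, 8 were below 0, where 50.2% of all tested genes were. The median of the 10 was -0.095, against -0.0004 over all tested genes.

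Tubb3 stood at 951, 843 and 916 CPM in the control libraries SF3, SF4 and SF5_6, and at 871, 814 and 861 CPM in the SmadNes libraries of those names. SmadNes was the lower library of each pair, but the ranges overlapped and the log2 difference was -0.091 (95% interval -0.25 to 0.064). Among the microtubule-associated proteins, Mapt stood at 172, 114 and 105 CPM in the control libraries SF3, SF4 and SF5_6, and at 126, 104 and 94.1 CPM in the SmadNes libraries of those names. Its difference was the largest of the 10, -0.27 (95% interval -0.77 to 0.23), again with the lower value in SmadNes in 3 of 3 pairs, and control SF3 stood above all other libraries. Without control SF3 the log2 difference of Mapt was -0.016, in a fit that has no block and keeps SmadNes SF3. With the block and both SF3 libraries left out it was -0.14. With the replicate name as a block Mapt did not pass (adjusted p 0.435), and with the block and both SF5_6 libraries left out it fell (log2 -0.29, adjusted p 0.0148). Adjusted p for Mapt ranged from 0.0148 to 1 over 14 alternative fits.

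Dcx stood at 1494, 1224 and 935 CPM in the control libraries SF3, SF4 and SF5_6, and at 1229.7, 1240.4 and 960.3 CPM in the SmadNes libraries of those names. Its log2 difference of -0.091 (95% interval -0.54 to 0.36) was below 0 within the SF3 pair alone (-0.28), with values of 0.019 and 0.038 in SF4 and SF5_6. Map2, which encodes the microtubule-associated protein of dendrites and cell bodies, stood at 1197, 1029 and 1083 CPM in the control libraries SF3, SF4 and SF5_6, and at 1131, 1122 and 1126 CPM in the SmadNes libraries of those names. All 3 SmadNes libraries of Map2 lay inside the range of the controls, and its log2 difference was 0.030 (95% interval -0.13 to 0.19).

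The stathmin Stmn2 stood at 158, 111 and 157 CPM in the control libraries SF3, SF4 and SF5_6, and at 130.3, 106 and 159 CPM in the SmadNes libraries of those names, and its log2 difference was -0.11 (95% interval -0.57 to 0.36). Stmn3 had 85.1, 67.8 and 66.9 CPM in controls and 74.2, 68.1 and 62.96 CPM in SmadNes, in the order SF3, SF4 and SF5_6, a log2 difference of -0.10 (95% interval -0.37 to 0.17). Stmn2 was lowest in both SF4 libraries, and Stmn3 was highest in both SF3 libraries. Gap43 had 79.9, 63.9 and 64.7 CPM in controls and 79.1, 66.4 and 65.2 CPM in SmadNes, in the order SF3, SF4 and SF5_6, a log2 difference of 0.015 (95% interval -0.27 to 0.30), the smallest in size of the 10.

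Nefl had 5.38, 4.71 and 11.04 CPM in controls and 5.21, 3.58 and 11.7 CPM in SmadNes, in the order SF3, SF4 and SF5_6. Both SF5_6 libraries stood above the other 4, and its genotype difference had the widest interval of the 10, -0.046 (95% interval -1.30 to 1.21). The lowest count behind any of these values was that of Nefl in SmadNes SF4, 118. Nefm had 22.6, 20.3 and 28.1 CPM in controls and 21.01, 15.9 and 26.2 CPM in SmadNes, in the order SF3, SF4 and SF5_6, lower in SmadNes in 3 of 3 pairs, with a log2 difference of -0.17 (95% interval -0.66 to 0.33). Ina had 159, 129.8 and 184 CPM in controls and 148, 133 and 157 CPM in SmadNes, in the order SF3, SF4 and SF5_6 and a log2 difference of -0.11 (95% interval -0.43 to 0.21). The plot of CPM by library shows these values for all 10 genes.

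**Figure D1:**
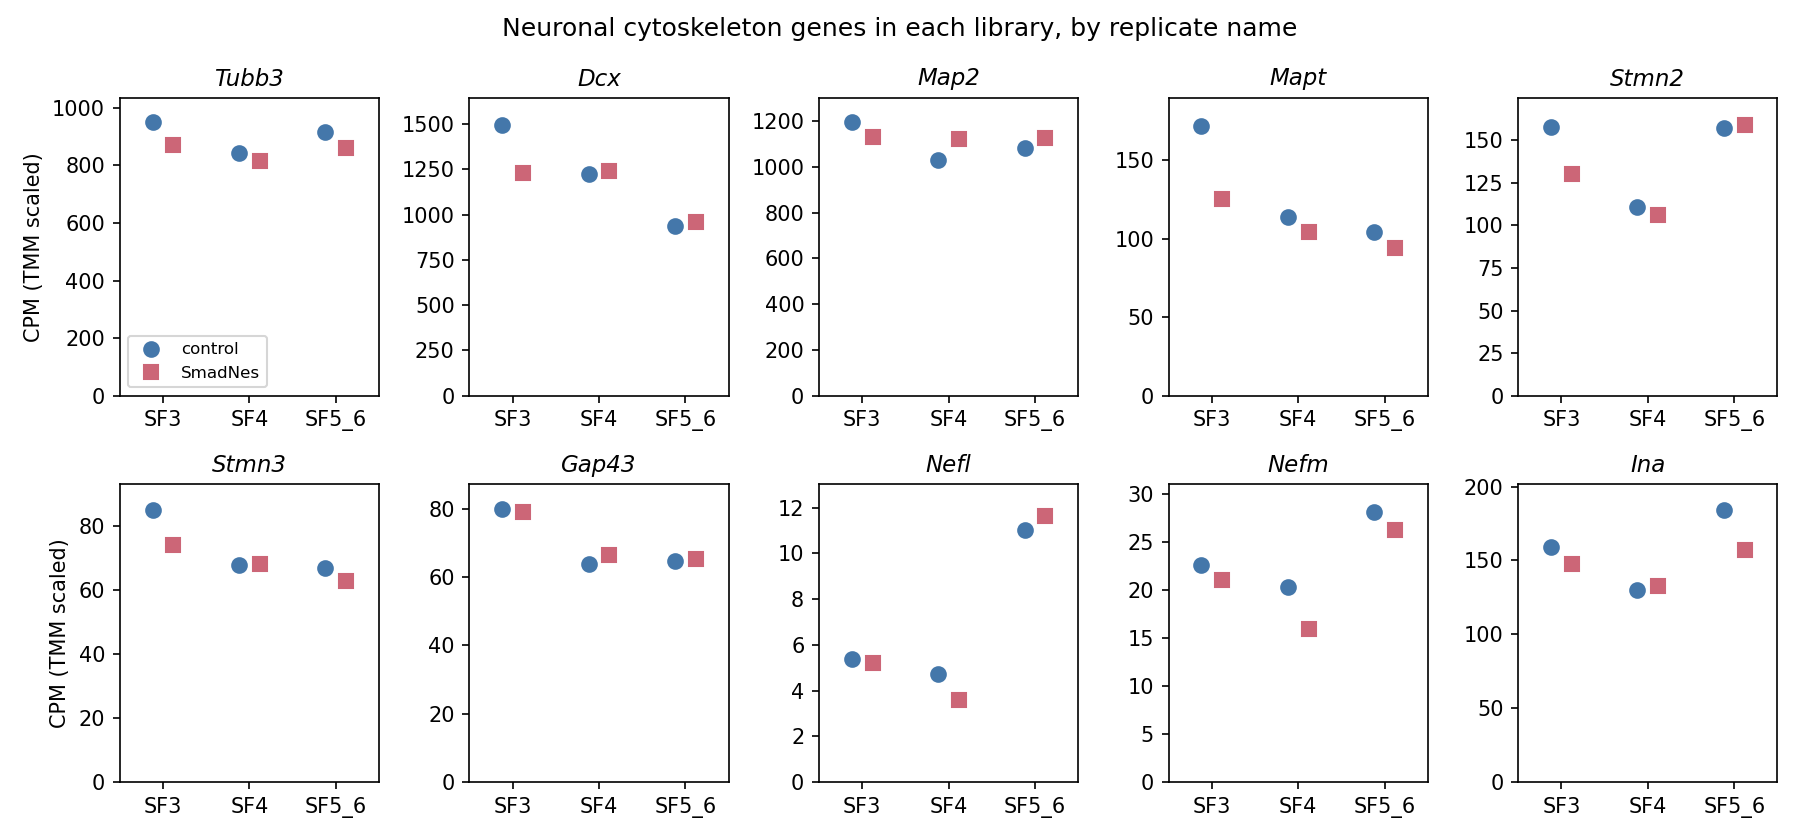
CPM (TMM scaled, axis from 0) of each of the 10 genes in the 6 libraries, with the replicate name on the x axis, controls as blue circles and SmadNes as red squares, 1 point per library. For Nefl, both SF5_6 libraries stand at 11.04 and 11.7 CPM and the other 4 between 3.58 and 5.38 CPM.

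The number of genes lower in SmadNes varied by pair, and the difference between pairs was not tested. All 10 genes were lower in SmadNes than in control within SF3 (median log2 -0.11), where 47% of all tested genes were. Within SF4 and within SF5_6, 5 of the 10 were lower in SmadNes (medians -0.023 and -0.039), against 50% and 53.2% of all genes. In SF3 the summed level of the other neuronal markers (12 genes such as Rbfox3, Tbr1 and Neurod6) was 3996 CPM in control and 3572 CPM in SmadNes, and that of radial glia markers 2039 and 2217 CPM. The ventral telencephalon and GABA neuron list summed to 91.8 and 28.9 CPM in this pair, Cajal-Retzius markers to 1264 and 1669 CPM, and mesenchymal markers to 609 and 851 CPM, in control and SmadNes. These 4 lists other than the mesenchymal one had the same directions in SF4 and SF5_6. The neuronal list summed to 3497 and 3461 CPM in SF4 and 2483 and 2369.5 CPM in SF5_6. Radial glia markers summed to 2364 and 2537 CPM, and 2298 and 2312 CPM. The ventral list had 38.2 and 25.7 CPM, and 223 and 161 CPM. Cajal-Retzius markers had 1237 and 1526 CPM, and 1199.7 and 1283 CPM. Mesenchymal markers had 416 and 254 CPM, and 988 and 1251 CPM. The part of these lists in the result was not tested. Only Tubb3, Mapt and Nefm were lower in SmadNes in all 3 pairs, 3 of 10, where 14.2% of all genes were. None of the 10 was higher in all 3 pairs, and 13.7% of all genes were.

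**Figure D2:**
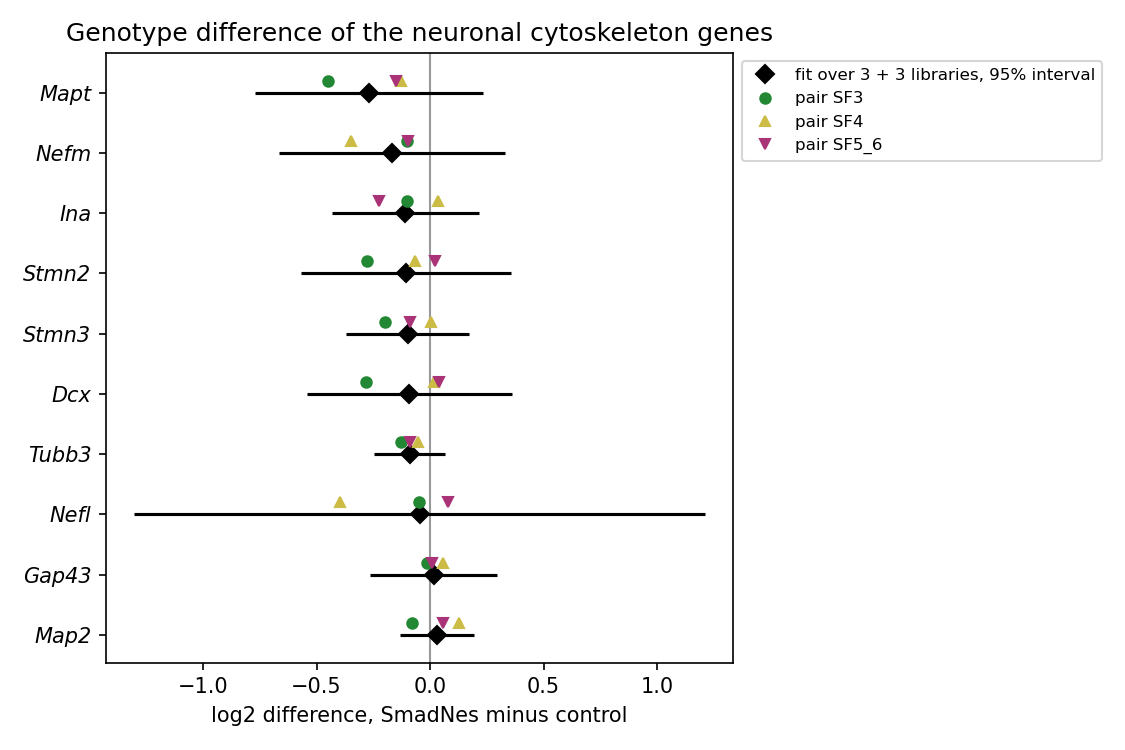
Log2 difference, SmadNes minus control, of the 10 genes: black diamonds with bars give the edgeR estimate without the block and its 95% interval, and coloured symbols the difference within each pair. Every interval shown includes 0, and all 10 green circles (pair SF3) lie left of 0. With the block, not drawn here, the intervals of Tubb3, Mapt and Nefm exclude 0.

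More of the 10 genes passed between pool names than between genotypes, as was so for all tested genes. The genotype test with the name as a block also measures the spread left within names. It called 0 of the 10 and 0.0237% of all genes. In a fit with genotype and name, edgeR's F test of the name terms called 8 of the 10 genes, where it called 28.8% of all tested genes and 32.8% of those whose mean reached 5 CPM. The 8 were Dcx, Mapt, Stmn2, Stmn3, Gap43, Nefl, Nefm and Ina, with adjusted p between 0.000265 (Nefl) and 0.0108 (Stmn3). Tubb3 (adjusted p 0.083) and Map2 (0.278) did not pass. Each name has 2 libraries, 1 per genotype, so the spread behind this test is that left within names.

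Set against the mean of SF3 and SF4, the SF5_6 pools split the genes in 2 directions, 4 higher and 4 lower. Over all tested genes this contrast called 32.5%, 16.8% higher and 15.6% lower. The median log2 difference of the 10 was 0.0067, as over all genes (0.0061). Among the genes of intermediate filaments, Nefl was 2.42-fold higher in SF5_6, with a log2 difference of 1.28 (SE 0.118, adjusted p 9.65e-05). Nefm was higher by 0.45 (SE 0.0715, adjusted p 0.00168) and Ina by 0.26 (SE 0.0519, adjusted p 0.0052) on the log2 scale. Stmn2 also rose, by 0.34 (SE 0.0571, adjusted p 0.00224). Against control SF3 alone, at 158 CPM, Stmn2 was level in SF5_6, at 157 and 159 CPM. Ina stood at 157 CPM in SmadNes SF5_6 and 159 CPM in control SF3.

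Dcx fell most in SF5_6, with a log2 difference of -0.45 (SE 0.0648, adjusted p 0.00107), and Mapt fell with -0.35 (SE 0.0661, adjusted p 0.00403). Smaller falls were those of Stmn3, -0.18 (SE 0.0505, adjusted p 0.0261), and Gap43, -0.15 (SE 0.0417, adjusted p 0.0265). The 2 stathmins thus moved in opposite directions. Tubb3 differed by 0.033 (95% interval -0.051 to 0.12) and Map2 by -0.019 (-0.13 to 0.088), so for both the interval excludes changes as large as those of Dcx or Stmn2. Nefl and Nefm had both SF5_6 libraries above the other 4, and Dcx and Stmn3 had both below them, patterns shown by 23.2% and 24.8% of all genes. Without 1 library in turn, Dcx, Mapt, Stmn2, Nefl and Nefm passed each time. Stmn3 and Gap43 lost the call without control SF3 (adjusted p 0.061 and 0.0574), SmadNes SF4 (0.0875 and 0.0845), control SF5_6 (0.146 and 0.158) or SmadNes SF5_6 (0.0825 and 0.169), and Ina lost it without control SF5_6 (log2 0.17, adjusted p 0.0962). Without control SF5_6 the contrast called 5 of the 10 genes and 3162 genes in all, against 5475 with every library.

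**Figure D3:**
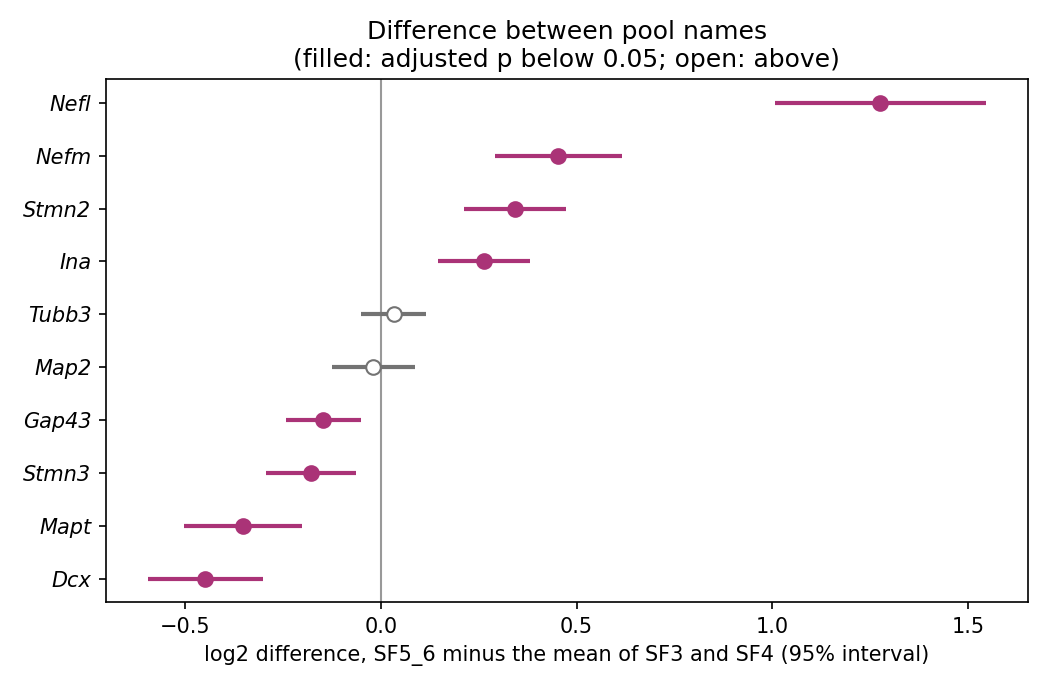
Log2 difference between the SF5_6 pools and the mean of the SF3 and SF4 pools for each of the 10 genes, with the 95% interval of the edgeR fit (6 libraries, genotype as a term), filled points having an adjusted p below 0.05. Nefl, Nefm, Stmn2 and Ina lie right of 0, Dcx, Mapt, Stmn3 and Gap43 left, and Tubb3 and Map2 at 0 within their intervals.

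Between SF4 and SF3 the pair means of the 10 genes had 1 direction. Control SF3 was the highest library for 6 of the 10, and the share over all genes was not taken. This library also enters the differences within the SF3 pair given above. Those 2 observations are therefore not independent. Within SmadNes, Dcx stood at 1229.7 CPM in SF3 and 1240.4 CPM in SF4, and Map2 at 1131 and 1122 CPM. The mean of the SF4 pair lay below that of the SF3 pair for 10 of the 10 genes, as for 49.6% of all genes. In a fit on these 4 libraries alone, chosen after seeing the data, 5 of the 10 fell (Mapt, Stmn2, Stmn3, Gap43 and Ina), where 7.39% of tested genes were called in either direction. Mapt led with a log2 difference of -0.44 (adjusted p 1.51e-05), followed by Stmn2 with -0.41 (1.11e-05). Nefm (-0.28, adjusted p 0.0557) and Nefl (-0.36, 0.27) did not pass. Gap43 and Stmn3 thus had overlapping or adjoining levels in SF4 and SF5_6 and higher ones in both SF3 libraries.

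Levels relative to one another were also taken by pool. Per kilobase, the level of Nefl relative to Nefm was 0.385 to 0.424 in the 4 libraries of SF3 and SF4, and 0.673 and 0.760 in SF5_6. Nefm relative to Ina stayed between 0.0670 and 0.0934 in all 6. Stmn2 relative to Stmn3 was 0.316 to 0.376 in SF3 and SF4 and 0.476 and 0.513 in SF5_6. Dcx relative to Tubb3 was 0.209 to 0.232 in the former and 0.151 and 0.165 in the latter. For Nefl to Nefm, Stmn2 to Stmn3 and Dcx to Tubb3, the SF5_6 libraries of both genotypes lay outside the range of the other 4. Map2 relative to Mapt did not separate so, at 3.19 to 4.93 in SF3 and SF4 and 4.74 and 5.48 in SF5_6. These ratios are built from the values given above, so they are no separate support for the pool differences. The share of other gene pairs that separate in this way was not taken.

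The other genes of the cytoskeleton, 96 in 8 roles of which 93 were tested, were compared in the same fits. EdgeR called 0 of the 93 between genotypes with or without the block. Their median log2 difference was -0.027, and 63 were below 0, where 50.2% of all tested genes were. The F test of names called 54 of 93 (58.1%), and in SF5_6 17 rose and 41 fell, with a median of -0.12. Over all tested genes these shares were 28.8% for names, 16.8% higher and 15.6% lower, and the counts by role below stand beside them. Growth cone genes fell or did not pass. Of 16, 10 fell and 0 rose (median -0.21), among them the collapsin response mediators Dpysl5 (-0.43, SE 0.0422, adjusted p 0.000132), Dpysl3 (-0.41, SE 0.0388, adjusted p 0.000103) and Crmp1 (-0.27, SE 0.0433, adjusted p 0.00178), and the actin bundler Fscn1 (-0.22, SE 0.0360, adjusted p 0.00195). Gap43, of the same role, had a log2 difference of -0.15. Of 14 motor genes, 10 fell and 0 rose (median -0.23), with the kinesin Kif21b at 1653, 1585 and 881 CPM in SF3, SF4 and SF5_6 (log2 -0.88, SE 0.0401, adjusted p 3.15e-06) and Kif5c, an axonal kinesin, at -0.26 (SE 0.0409, adjusted p 0.00177).

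Among tubulins other than Tubb3, 5 rose and 4 fell of 12. Tuba1a, the most abundant with 1964 CPM per kb, fell (-0.19, SE 0.0421, adjusted p 0.00839), but its transcripts share windows of read length with Tuba1b and Tuba1c, so its count is uncertain. Tubb5, with 749 CPM per kb, did not pass (-0.031, SE 0.0384, adjusted p 0.585). Tubb4a rose (0.26, SE 0.0418, adjusted p 0.00189), and Tuba4a stood at 28.3, 26.8 and 9.54 CPM in SF3, SF4 and SF5_6 (-1.53, SE 0.0790, adjusted p 4.74e-06). Of 22 further microtubule-associated genes, 4 rose and 7 fell, and the names test called 31.8%, near the share over all genes. Map6, which stabilises microtubules against cold, rose (0.29, SE 0.0418, adjusted p 0.00104), Clasp2 fell (-0.33, SE 0.0461, adjusted p 0.000948), and Map1b, the most abundant of the role, did not pass (0.015, SE 0.0400, adjusted p 0.813). Dclk1, a relative of Dcx, did not pass either (0.033, SE 0.0540, adjusted p 0.684). The difference between Dcx and Dclk1 was not tested.

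Stmn4 rose with Stmn2 (0.27, SE 0.0768, adjusted p 0.0258), whereas Stmn1, the stathmin of progenitors as well as neurons, fell (-0.21, SE 0.0532, adjusted p 0.0177). Fign, a microtubule-severing enzyme of the same role, stood at 8.30, 7.33 and 25.98 CPM in SF3, SF4 and SF5_6 (1.75, SE 0.0895, adjusted p 4.71e-06). The progenitor intermediate filaments rose with the neurofilaments, Nes with 0.29 (SE 0.0503, adjusted p 0.00259) and Vim with 0.21 (SE 0.0394, adjusted p 0.00443). Prph, which encodes peripherin, the intermediate filament of peripheral neurons, went the other way from Nefl and Nefm, at 2.34, 3.05 and 0.569 CPM (-2.23, SE 0.235, adjusted p 0.000201). Of 5 spectrins and ankyrins 1 rose and 2 fell, with Sptan1, the non-erythroid alpha spectrin gene, at -0.41 (SE 0.0475, adjusted p 0.000313). Of 10 kinases 1 rose and 5 fell, among them Cdk5r1, the activator of the neuronal kinase Cdk5, with -0.45 (SE 0.0488, adjusted p 0.000234), and Mark1, which phosphorylates tau and other MAPs, with -0.45 (SE 0.0446, adjusted p 0.000138).

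**Figure D4:**
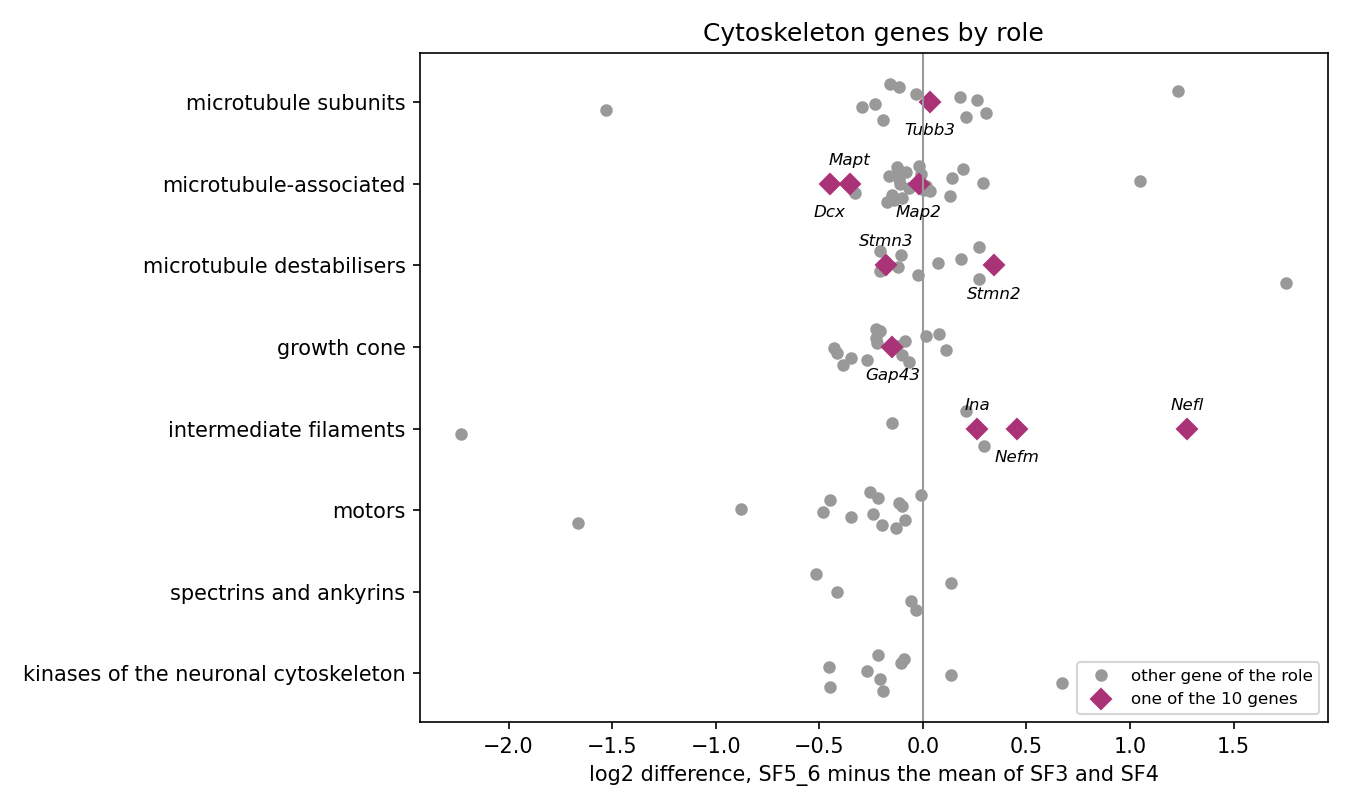
Log2 difference between SF5_6 and the mean of SF3 and SF4 for the 10 genes (named diamonds) and the 93 other tested cytoskeleton genes (grey circles, spread vertically only for legibility), by role. Motor and growth cone genes lie mostly left of 0, and Nefl, Nefm and Ina lie right of it.

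Markers of several cell types differed along with the pools. The radial glia list had 12 of 12 genes past the filter on low counts, and its summed level was 2039 to 2537 CPM in the other 4 libraries and 2298 and 2312 CPM in SF5_6, with 6 genes higher and 2 lower in SF5_6. The other neuronal markers summed to 3461 to 3996 CPM in the other 4 libraries and 2369.5 and 2483 CPM in SF5_6, and 10 of 12 fell in SF5_6, 1 rose and 1 did not pass (Celf4). Neurod6, a transcription factor of cortical projection neurons, fell with a log2 difference of -1.40 (SE 0.0762, adjusted p 6.01e-06) and Tbr1, which specifies early cortical neurons, with -0.24 (SE 0.0390, adjusted p 0.00207). Intermediate progenitor markers summed to 1681 to 1813 CPM in the other 4 libraries and 1076 and 1145 CPM in SF5_6, with 8 of 8 lower, among them Eomes at -0.70 (SE 0.0379, adjusted p 6.01e-06). Dcx, Mapt, Stmn3 and Gap43 shared the direction of these lists, Nefl, Nefm, Ina and Stmn2 went the other way, and Tubb3 and Map2 did not pass. Syt1, the synaptic vesicle gene of the neuronal list, was the 1 that rose (0.34, SE 0.0769, adjusted p 0.0097).

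Genes of the ventral telencephalon and of GABA neurons rose in SF5_6, 9 of 10 with Lhx6 the exception, and summed to 25.7 to 91.8 CPM in the other 4 libraries and 161 and 223 CPM in SF5_6. Cajal-Retzius markers summed to 1237 to 1669 CPM in the other 4 libraries and 1199.7 and 1283 CPM in SF5_6, with 7 of 8 higher and Reln, their most abundant gene, lower (-0.63, SE 0.0445, adjusted p 2.11e-05). Mesenchymal markers summed to 254 to 851 CPM in the other 4 libraries and 988 and 1251 CPM in SF5_6 (6 of 7 higher), and microglial markers to 9.25 to 75.9 CPM in the other 4 libraries and 54.4 and 58.7 CPM in SF5_6 (5 of 6 higher). Erythroid markers summed to 95.8 to 303 CPM in the other 4 libraries and 290.4 and 507 CPM in SF5_6 (5 of the 6 tested higher, 1 lower), and endothelial markers to 17.03 to 21.5 CPM in the other 4 libraries and 21.8 and 22.97 CPM in SF5_6 (3 of 6 higher, Cldn5 not tested). Microglial sums in control and SmadNes were 71.2 and 75.9 CPM in SF3, above both SF5_6 libraries, and 10.9 and 9.25 CPM in SF4. Erythroid sums were 303 and 264 CPM in SF3 and 95.8 and 102 CPM in SF4. Markers of dividing cells summed to 1703 to 2053 CPM in the other 4 libraries and 2142 and 2289 CPM in SF5_6 (5 of 8 higher). Of 8 markers of peripheral sensory and autonomic neurons, which carry much neurofilament, Dbh had 0 counts in every library and Isl2 at most 9, and the list, which also holds Prph, summed to 4.21 to 5.45 CPM in the other 4 libraries and 6.02 and 6.14 CPM in SF5_6. Th (2.37, SE 0.266, adjusted p 0.000281) and Pou4f1 (0.98, SE 0.187, adjusted p 0.0044) of this list rose in SF5_6, and Prph fell. The part of these cell types in the pool differences of the 10 genes was not tested.

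**Figure D5:**
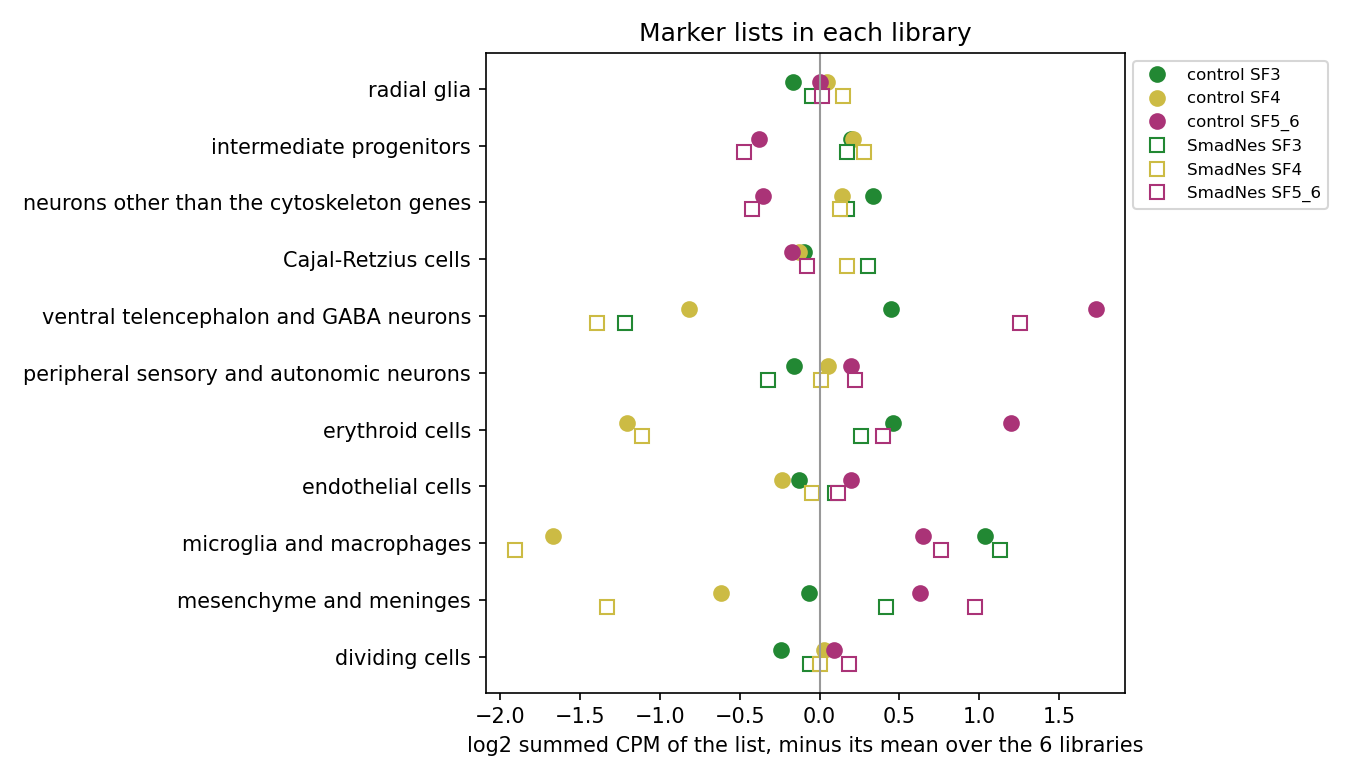
Summed CPM of each marker list in each library, on a log2 scale and relative to its mean over the 6 libraries, with controls as filled circles and SmadNes as open squares, coloured by replicate name. Neuronal and intermediate progenitor lists are lowest in both SF5_6 libraries, and the ventral telencephalon list is highest there.

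Within the 10 genes, likeness was measured as the root mean square difference of log2 CPM profiles (log2 of CPM + 0.5, each centred on its mean over the 6 libraries). The closest pair was Stmn3 and Gap43 (0.0679), followed by Tubb3 and Map2 (0.0722). Dcx (0.139) and Mapt (0.144) were each nearest to Stmn3, Stmn2 was nearest to Ina (0.123), Nefm to Stmn2 (0.124) and Ina to Tubb3 (0.122). Nefl was 0.358 from its nearest, Nefm, and 0.789 from Dcx. The mean profile of the 10 ran from 0.17 in control SF3 to -0.20 in SmadNes SF4. Among 9912 other genes at a mean of 10 CPM or more, the 8 nearest to it were Epb41l1 (0.0294), Cyb5a, Xbp1, B3galnt1, Mkks, Tsc22d3, Rbm12b2 and BC034090 (0.0502). Epb41l1, itself a membrane cytoskeleton protein of neurons, stood at 57.9, 48.7 and 53.6 CPM in controls and 52.4, 44.2 and 52.7 CPM in SmadNes, in the order SF3, SF4 and SF5_6. The mean profile averages genes of opposite direction, and likeness over 6 libraries that share 3 names is a description only.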

How the data were processed

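RNA was measured in 6 libraries, 3 per genotype. Stranded mRNA libraries were read from both ends. Per the labels' protocols, the authors used STAR 2.5.3a for alignment (GRCm38) and RSEM 1.3.0, set for stranded reads, for quantification against GENCODE M15. DESeq2 1.18 is listed in the submitters' processing notes. What was deposited is an expected count per gene and library, in whole numbers and unscaled. The rounding step is not stated in these sources, and counts of near-identical copies rest on RSEM's estimate.

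Genotype was fitted alone, and name tests had genotype and name as terms. Both used TMM factors, the filterByExpr filter and the quasi-likelihood test of edgeR 4.0.16 under R 4.3.3, over the 16869 genes that passed. The Benjamini-Hochberg adjustment ran over all of them, with calls at an adjusted p below 0.05. SE and intervals come from the fit. Alternatives were DESeq2 1.42.0, RLE scaling, no filter, left-out libraries and the block. Exon lengths and positions come from GENCODE M21, the same build, matched by ID for 16829 of the tested genes. A count of 3, the limit that a count of 0 allows, came to at most 0.0909 CPM (counting error only).

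Libraries of 1 name deviated together from their group means across genes (r = 0.451, 0.665 and 0.685, against at most -0.0850 between names), and the labels speak of pairs, so the names pair the samples. Deviations within a group sum to 0, so positive values within names force negative ones between names on balance. The negative values are therefore no separate support for the pairing. The biological coefficient of variation was 0.198 without and 0.0556 with the name as a block. The fit without the block was the main one, because the labels state no paired test. It leaves the pairing out, and with the block the intervals of Tubb3, Mapt and Nefm, unadjusted for the number of genes, excluded 0.

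The 10 genes, the other lists and the name contrast were chosen with earlier results of these data known. Named by rule were the 10 genes, Smad1, Smad5, Prom1, candidates per role (the 2 highest per kilobase and the 2 smallest unadjusted p for genotype and for names, at 1 CPM or more), and the nearest profiles. Neurod6, Tbr1, Eomes, Syt1, Reln, Celf4 and Lhx6 were named after their values were seen, as were Th and Pou4f1. Some listed genes are not reported here.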

Additional observations from a re-analysis of the deposited data

How the results depend on the processing

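With 1 library, or with the block both libraries of 1 name, left out in turn, the genotype test called 0 to 149 genes (48 with the block and without SF4) and 0 to 1 of the 10, the 1 being Mapt without SF5_6. Genotype log2 differences that changed sign in these fits, none called, ranged over -0.26 to 0.083 (Dcx), -0.17 to 0.022 (Stmn3), -0.27 to 0.027 (Stmn2), -0.23 to 0.011 (Ina), -0.020 to 0.093 (Map2), -0.080 to 0.13 (Gap43) and -0.68 to 0.43 (Nefl). The fits without 1 library have no block and keep the other library of that name, so differences between pools enter these ranges. With the block and both libraries of 1 name left out, Nefl ranged over -0.21 to 0.022. With the block, Dcx stood at 0.0304 without SF3, and Map2 at -0.0145, Gap43 at -0.0046 and Nefl at 0.0218 without SF4. Tubb3, Mapt and Nefm stayed below 0 in all 14 alternative fits. With the replicate block and all libraries edgeR called 4 genes and none of the 10, DESeq2 called 7, and DESeq2 with the block, added after seeing the data, 14. The block changed no other call among the 10. Name tests called 3157 genes with DESeq2's likelihood ratio test (8 of the 10), 6357 without the filter (9), and, without both SF5_6 libraries, 1250 (5). Leaving out 1 library gave 3380 to 5029 genes and 7 to 9 of the 10 in the name test, and 3162 to 5369 genes and 5 to 8 of the 10 in the SF5_6 contrast, where Map2 ranged over -0.065 to 0.022. RLE in place of TMM scaling shifted the median of all genes by at most 0.00703 (log2) and changed no call among the 10. The causes were not tested. With 3 pools per genotype the intervals without the block allow changes of up to -1.30 on the log2 scale for Nefl and -0.77 for Mapt, and those with the block up to -0.37 and -0.39.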
